A study of Mus musculus with 6 samples.

Results

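Cdhr5, Kcne1l, Grin3a, Slc13a4, Slc6a9, Ddr1, Il17re and Anln are 8 genes with large rises in mitoNEET transgenic fat whose levels followed much the same course over the 6 arrays of the study. They were chosen by their measured log2 difference between genotypes, from the largest among genes past the threshold with no overlap between the groups, and by wild type array 3 reading above its 2 fellow arrays. The array carries 15 probes for these 8 genes, out of 45281 probes and 19057 named genes. Of the 15 probes 11 lay above background on at least 3 arrays, and each of the 8 genes had at least 1 such probe. The difference between genotypes and the high reading of wild type array 3 chose the genes, so both are described below without a test.

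The RNA came from snap-frozen subcutaneous fat of male mice of the FVB strain aged 12 weeks. There were 3 arrays from mice carrying a mitoNEET transgene and 3 arrays from wild type mice, on Illumina bead arrays read as deposited, quantile-normalized intensities. MitoNEET, the product of Cisd1, sits on the outer face of mitochondria and carries an iron-sulfur cluster. All 6 array descriptions, of both genotypes, begin with aP2, a name of the Fabp4 gene whose promoter is widely used to drive transgenes in adipocytes; the labels do not state the promoter, the line or whether each array came from a separate animal. The Cisd1 probe read 1090.5, 1106 and 1060.2 on the transgenic arrays and 1035, 773 and 937 on the wild type arrays, a log2 difference of 0.26 (SE 0.11) with an adjusted p of 0.163 in limma's moderated test. In that fit 13.4% of 14962 features passed an adjusted p under 0.05, with 5.11% higher and 8.26% lower in transgenic tissue. The calls rest on particular arrays: none passed without transgenic array 2, where 3580 had an unadjusted p under 0.05, and 306 passed without wild type array 2. Background lay at an intensity of 47.8, and the threshold for a reading above it at 55.6.

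The 8 genes do not form a pathway. Slc13a4 and Slc6a9 encode carriers that move sulfate and glycine into cells together with sodium, Kcne1l and Grin3a encode subunits of a potassium channel and of an NMDA-type glutamate receptor, Cdhr5 and Ddr1 encode surface proteins that bind other cells or collagen, Il17re encodes a cytokine receptor chain, and Anln encodes the actin-binding scaffold of the ring that divides cells. Several are best known outside fat: Cdhr5 from the brush border of gut and kidney, Slc6a9 from glia, Slc13a4 from the placenta and the membranes around the brain, Ddr1 from epithelia and myelin-forming cells, and Il17re from epithelia that respond to interleukin 17C. None is a usual marker of adipocytes.

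Promoter sequences are shown for 4 of the genes that RefSeq gives a single start: Cdhr5 and Kcne1l, which had the largest differences, Slc13a4, which kept least closely to the shared course, and Anln, the cell division gene. Each run is the 250 bases before the start, 5′ to 3′, with matches to the searched motifs in capitals.
Cdhr5 (GRCm38.p6, chr7:141276787-141277036, minus strand): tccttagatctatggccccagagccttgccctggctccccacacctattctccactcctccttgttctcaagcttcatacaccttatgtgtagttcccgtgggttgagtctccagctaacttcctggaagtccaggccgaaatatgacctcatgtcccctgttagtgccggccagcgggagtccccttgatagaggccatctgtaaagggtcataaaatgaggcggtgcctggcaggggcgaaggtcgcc
Kcne1l (GRCm38.p6, chrX:142306199-142306448, minus strand): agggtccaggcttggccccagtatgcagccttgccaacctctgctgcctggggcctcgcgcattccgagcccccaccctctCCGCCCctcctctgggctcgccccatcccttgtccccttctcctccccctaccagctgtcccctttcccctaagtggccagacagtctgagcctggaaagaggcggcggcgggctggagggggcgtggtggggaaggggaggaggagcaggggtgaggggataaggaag
Slc13a4 (GRCm38.p6, chr6:35308127-35308376, minus strand): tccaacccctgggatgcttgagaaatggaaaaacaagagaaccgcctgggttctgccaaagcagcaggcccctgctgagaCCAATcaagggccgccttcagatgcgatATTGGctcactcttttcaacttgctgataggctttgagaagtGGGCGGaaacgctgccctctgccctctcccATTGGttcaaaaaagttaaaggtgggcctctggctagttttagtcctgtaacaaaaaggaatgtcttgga
Anln (GRCm38.p6, chr9:22389207-22389456, minus strand): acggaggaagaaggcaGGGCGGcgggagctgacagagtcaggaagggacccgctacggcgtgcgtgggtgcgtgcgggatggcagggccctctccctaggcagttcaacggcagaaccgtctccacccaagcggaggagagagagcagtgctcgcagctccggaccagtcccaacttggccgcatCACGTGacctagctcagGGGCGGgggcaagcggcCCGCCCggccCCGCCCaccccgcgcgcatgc

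RefSeq's table for GRCm38.p6 held 12 such windows for 7 of the 8 genes, with none for Grin3a. Both strands were searched for TATAAA (the TATA box), CCAAT (the CCAAT box), GGGCGG (the core of the GC box), CACGTG (an E-box), TGACG (the core of cyclic AMP response elements) and AACAAAG (a Sox factor motif), none of which lies within another. GGGCGG was in 7 of 12 windows belonging to 5 of 7 genes, and in 32.7% of all 32851 windows of the same length. In the sequences above it marks Kcne1l, Slc13a4 and Anln and is absent from Cdhr5, which held none of the 6 motifs. TATAAA was in 0 of 12 windows and in 12.4% of all windows. CCAAT occurred in the Slc13a4 window alone among the 12, CACGTG in that of Anln and TGACG in 1 of 3 windows of Slc6a9, against 33.8%, 6.02% and 17.8% of all windows. AACAAAG was in 1 window each of Ddr1 and Slc6a9 and in 5.03% of all windows. The share of G and C ran from 50.4% in Slc13a4 to 78.0% in a Ddr1 window, with a median of 52.4% over all windows. No motif was found in every gene. The pairs that share a chromosome, Grin3a with Slc6a9 and Slc13a4 with Il17re, are separated by 960 and 1580 other genes of the table.

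The carriers were both high in transgenic tissue. Slc13a4 (Entrez Gene 243755), which imports sulfate with sodium, read 451, 414 and 442 on transgenic arrays 1, 2 and 3, against 165, 125 and 304 on wild type arrays 1, 2 and 3. The transgenic arrays were the closest together of any of the 8 genes, at 435 ± 19.4 against 198 ± 94.1 (SD, n = 3 each), a log2 difference of 1.24 or 2.36-fold. Slc6a9 (Entrez Gene 14664), the glycine transporter that clears glycine around glia, read 391, 397 and 276 on the transgenic arrays, against 129, 122 and 216 on the wild type arrays. Transgenic array 3 stood below the other transgenic arrays and wild type array 3 above the other wild type arrays, without the groups meeting (log2 difference 1.22, 2.33-fold).

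The channel and receptor subunits were dimmer on wild type arrays 1 and 2. Kcne1l (Entrez Gene 66240), also called Kcne5, encodes a small membrane protein that modulates voltage-gated potassium channels. It read 324, 266 and 202 on the transgenic arrays, against 68.6, 70.5 and 159 on the wild type arrays, a log2 difference of 1.50 or 2.83-fold. Grin3a (Entrez Gene 242443), an NMDA receptor subunit that binds glycine, read 220.2, 182 and 142 on the transgenic arrays, against 48.7, 55.5 and 139.6 on the wild type arrays. The annotation ties this probe to the gene but names no transcript for it. Wild type arrays 1 and 2 were not above background for Grin3a, and wild type array 3 came within 1.02-fold of transgenic array 3. Its log2 difference of 1.30 (2.47-fold) therefore sets readings above background against a group in which 1 of 3 arrays measured the gene. Subtracting the background level gave Kcne1l a log2 difference of 2.49 (5.62-fold). For Grin3a that subtraction sets wild type arrays 1 and 2 to the floor of 16 intensity units, so it gives no fold.

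The surface receptors and the adhesion protein showed the same course. Cdhr5 (Entrez Gene 72040), a protocadherin that links microvilli, had the largest difference of the 8, with 493, 387 and 267 on the transgenic arrays, against 89.5, 90.9 and 264 on the wild type arrays. Its groups nearly touched, since wild type array 3 lay just under transgenic array 3 (382 ± 113 against 148 ± 100.2, SD, n = 3 each; log2 difference 1.52, 2.87-fold). Without wild type array 3 the log2 difference of Cdhr5 was 2.04. Ddr1 (Entrez Gene 12305), a receptor tyrosine kinase activated by collagen, read 544, 398 and 335 on the transgenic arrays, against 145, 142 and 288 on the wild type arrays (log2 difference 1.21, 2.31-fold). Il17re (Entrez Gene 57890), the chain that joins Il17ra in the receptor for interleukin 17C, read 482, 445 and 377 on the transgenic arrays, against 161, 163 and 282 on the wild type arrays (log2 difference 1.15, 2.22-fold). In both genes wild type arrays 1 and 2 were nearly equal and every transgenic array was above wild type array 3.

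Anln (Entrez Gene 68743), which organises actin and septins in the cleavage furrow, had the smallest difference of the 8. It read 436, 458 and 394 on the transgenic arrays, against 156, 155 and 314 on the wild type arrays (429 ± 32.5 against 208 ± 91.6, SD, n = 3 each; log2 difference 1.13, 2.18-fold). The groups did not overlap, and wild type array 3 was nearer to the transgenic arrays than to the other wild type arrays.

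**Figure D1:**
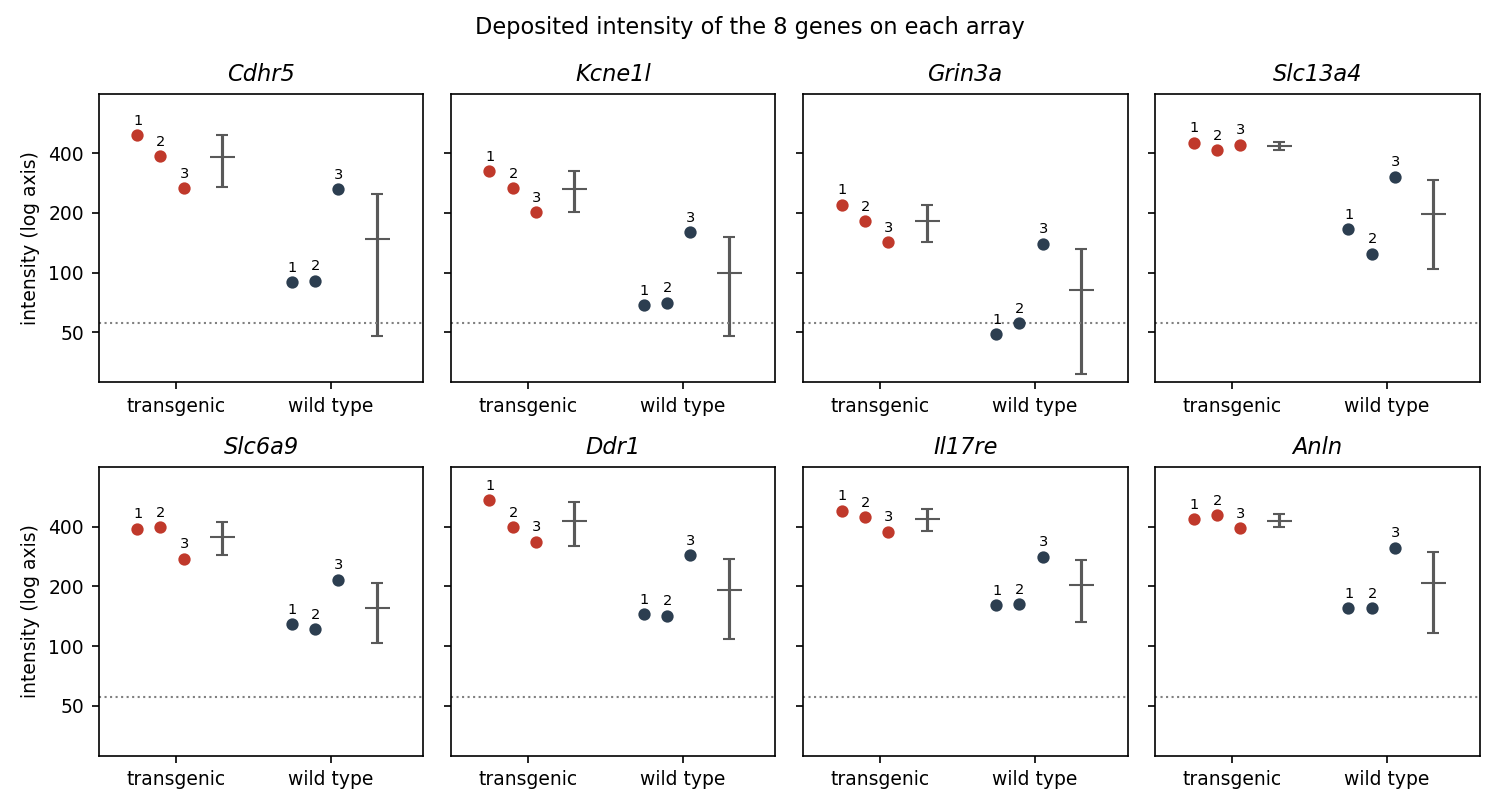
Deposited intensity (log axis) of the 8 genes on each array, transgenic on the left and wild type on the right of each panel; numbers give the array, bars the mean and SD of 3 arrays and the dotted line the background threshold of 55.6. Wild type array 3 lies above wild type arrays 1 and 2 in all 8 panels and below the lowest transgenic array, by as little as 1.01-fold in Cdhr5.

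Of the 8 genes 4 had more than 1 probe, and their probes did not all read the same. Il17re had 4 probes. The next probe after the one above read 434, 408 and 394 on the transgenic arrays, against 189, 153 and 277 on the wild type arrays, a log2 difference of 1.04. The third, which the annotation ties to another transcript, was dimmer at 123, 124 and 108 against 67.2, 71.2 and 100.2 (log2 difference 0.59), and the fourth stayed below the threshold on all 6 arrays. In each of the 3 Il17re probes above background every transgenic array was above every wild type array and wild type array 3 was the highest of its group, while the order of the other arrays varied. The other Ddr1 probe lay near background, at 82.4, 69.5 and 58.7 on the transgenic arrays, against 53.9, 56.6 and 61.2 on the wild type arrays, with wild type array 3 above transgenic array 3 (log2 difference 0.28). For Anln and Slc6a9 a single probe carried the pattern. The other Slc6a9 probe stayed below the threshold on all arrays, between 40.2 and 53.3. Of the other Anln probes 1 exceeded the threshold on 1 array and 1 on none, with log2 differences of 0.14 and -0.01. Such low readings cannot show whether a transcript form is missing or the probe reads poorly, and the probe sequences were not used here. Cdhr5, Kcne1l, Grin3a and Slc13a4 have 1 probe each, so Il17re alone showed the pattern on more than 1 probe.

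**Figure D2:**
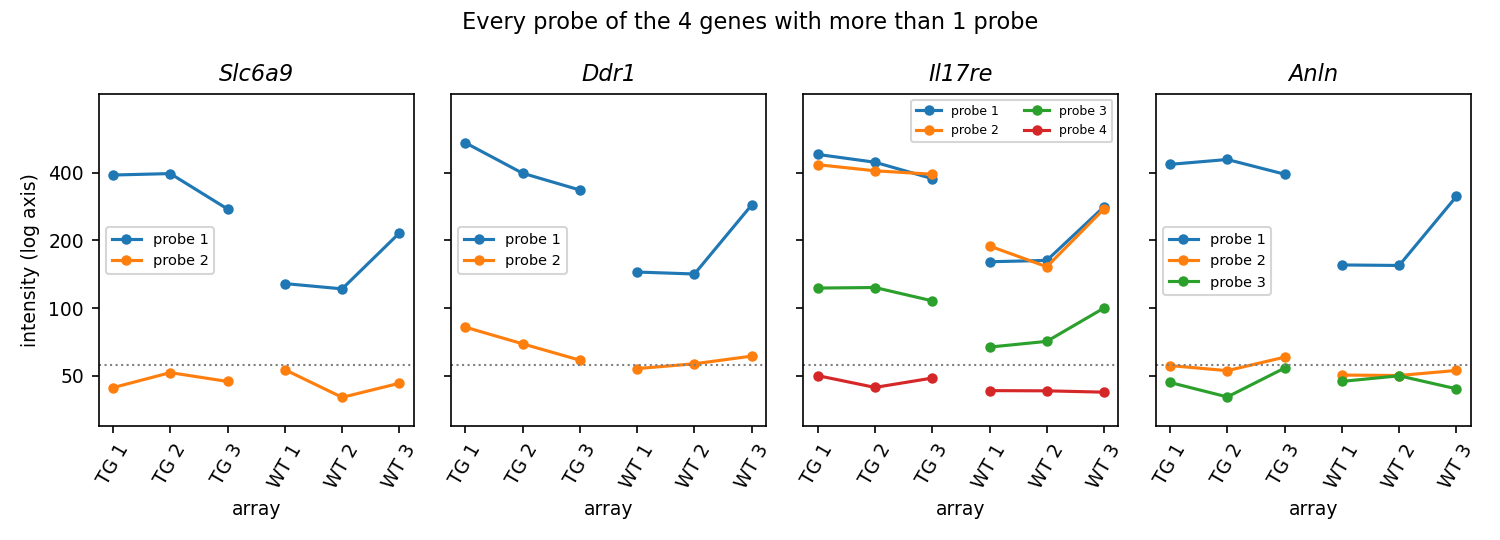
Intensity (log axis) of every probe of the 4 genes with several probes, on transgenic arrays 1 to 3 (TG) and wild type arrays 1 to 3 (WT); each colour is a probe, numbered by brightness within its gene, and the dotted line is the background threshold. In Slc6a9 and Anln 1 probe rises above the threshold on all arrays, and in Il17re 3 probes do.

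How far wild type array 3 stood from its group could be given on the log2 scale, as its share of the way from the mean of wild type arrays 1 and 2 to the mean of the transgenic arrays. That share was 53.1% in Slc6a9, the lowest, 80.1% in Grin3a, the highest, and 66.5% in the median gene. For Grin3a it rests on wild type arrays 1 and 2, which were not above background. Features with every transgenic array higher and wild type array 3 highest of its group numbered 1379 of 14962, or 9.22%. Their median share was 50.8%, with quartiles of 35.7% and 63.3%. Those features were not chosen for a large rise, as the 8 genes were, so the shares are only described. Without wild type array 3 the median log2 difference of the 8 genes was 1.57, against 1.23 with it. Background subtraction gave a median of 1.57. Over all features the median log2 difference was 0.03.

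The order of the transgenic arrays was not used in choosing the genes. Transgenic array 3 was the lowest of its group in 7 of the 8 genes, the exception being Slc13a4 with transgenic array 2 lowest. It was also the lowest in 36.9% of all features and in 43.9% of the 1379 with the same arrangement of the other arrays. Transgenic array 1 was the highest in 6 of the 8 genes, with transgenic array 2 highest in Slc6a9 and Anln. The highest transgenic reading exceeded the lowest by 1.85-fold in Cdhr5, 1.62-fold in Ddr1 and 1.60-fold in Kcne1l, and by 1.09-fold in Slc13a4. The 8 genes share their arrays, so these are not independent observations.

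Over the 6 arrays the 28 pairs among the 8 genes had a Pearson r from 0.945 to 0.996 with a median of 0.979 on log2 intensities. The choice of genes fixes most of this, since 2 groups without overlap and a shared high wild type array make any pair alike, and no p is given. After the group means were removed the pairs still ran from 0.795 to 1.00 with a median of 0.960, where the single high reading of wild type array 3 carries much of the value. Each gene was set against the mean standardised profile of the other 7. Kcne1l came closest (r = 0.998) and Slc13a4 least close (0.963), and in deviations from group means Il17re came closest (0.998) and Slc13a4 least close (0.866).

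At the edge of the rule, the gene just inside was Anln with a log2 difference of 1.13. The next genes in that ranking were Slc9b2, a sodium-proton exchanger, at 1.11 with 166, 155 and 111 on the transgenic arrays, against 68.9, 55.7 and 73.9 on the wild type arrays, and Sfrp1, a secreted Wnt antagonist, also at 1.11. Comp and H2-M9 ranked above the 8 genes, at 1.98 and 1.76, and are not among them. In Comp, H2-M9, Slc9b2 and Sfrp1 wild type array 3 was also the highest of its group. The order of the wild type arrays therefore does not set the 8 genes apart from these neighbours. In all, 27 named genes had a log2 difference of at least 1, and 9 of these either overlapped between groups or missed the threshold. Among the 9, wild type array 3 read like the transgenic arrays in Dlk1, a gene of preadipocytes, which had 1588, 1914 and 1624 on the transgenic arrays, against 124, 143 and 1883 on the wild type arrays. Mgp, which encodes matrix Gla protein, had 2235, 2203 and 1733 on the transgenic arrays, against 506, 524 and 1718 on the wild type arrays. Dlk1 overlapped between groups (adjusted p = 0.103) and Mgp missed the threshold (adjusted p = 0.0561). Mgp was named after its values were seen.

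The pattern was shared by other genes, at large as well as smaller sizes. Of 11461 other named genes, 335 (2.92%) had an r over 0.95 with the mean standardised profile of the 8 genes over the 6 arrays. Their median log2 difference was 0.40, and 125 of them passed as higher. A log2 difference of 1 was reached by 13 of them, beside 27 among all named genes, the 8 included. The 10 closest were Cdc25b, a phosphatase that activates cyclin-dependent kinases, Apbb2, Liph, a phosphatidic acid lipase, Sh2b2, an adaptor of insulin signalling, Ensa, a phosphatase regulator of mitosis, Pex19, which delivers peroxisomal membrane proteins, Dmwd, Aarsd1, Ssr2, a translocon subunit of the endoplasmic reticulum, and the histone gene H2bc21. Their r lay between 0.990 and 0.998 over 6 arrays, and their log2 differences between 0.21 for Pex19 and 0.56 for H2bc21, below the smallest of the 8 genes. Of the 10, Apbb2 (adjusted p = 0.0497), Sh2b2 (0.032) and H2bc21 (0.0301) passed in limma's test. Cdc25b read 120.2, 116 and 108 on the transgenic arrays, against 83.9, 85.1 and 103 on the wild type arrays. Its arrays stood in the same order as those of Cdhr5, over a narrower range.

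With group means removed, the 10 closest genes were Pdgfb, a growth factor that recruits pericytes, Msi2, Fam71b, Ddias, Becn1, an autophagy gene, Zfp410, Cul9, Cdc25b, Apbb2 and Arih2, with r from 0.992 to 0.998. Cdc25b and Apbb2 stood in both sets of 10. Pdgfb read 695, 638 and 568 on the transgenic arrays, against 382, 389 and 609 on the wild type arrays, so that wild type array 3 overlapped with the transgenic arrays (log2 difference 0.49, adjusted p = 0.1). Fam71b, Ddias and Arih2 had log2 differences of -0.15, -0.03 and -0.05 and did not pass. A raised wild type array 3 thus also occurred in genes with little difference between genotypes, but this ranking selects for it whatever its size. The rise was small here: Arih2 read 1170 and 1142 on wild type arrays 1 and 2 and 1323 on wild type array 3.

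**Figure D3:**
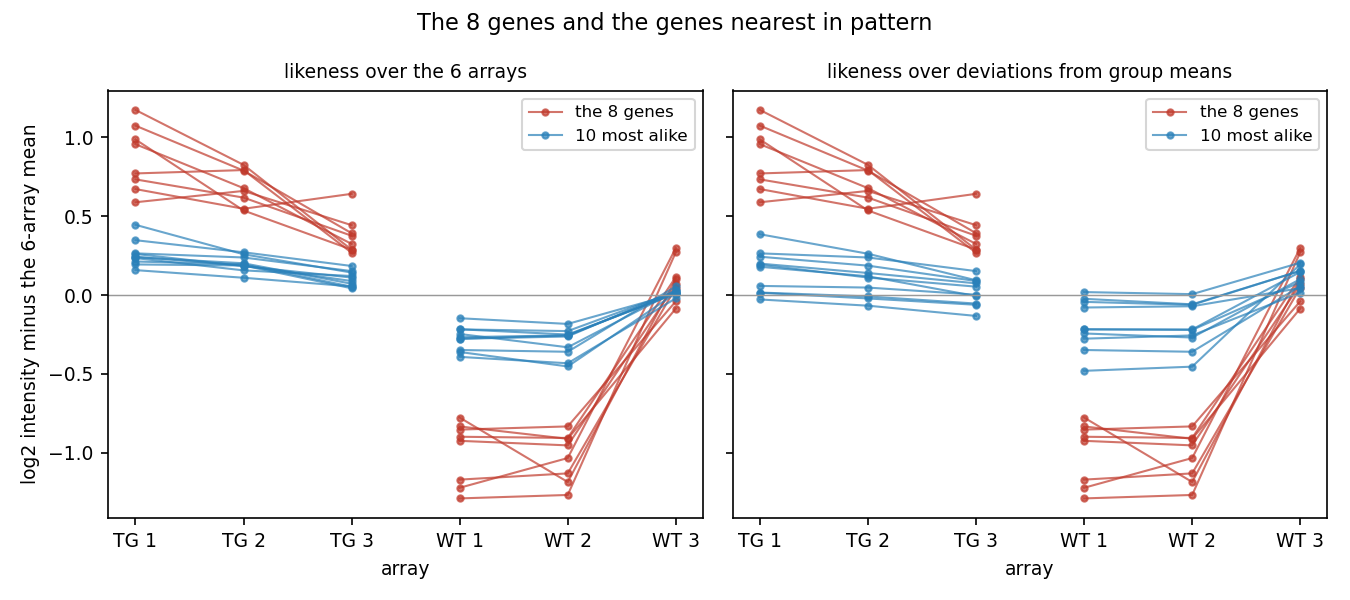
Log2 intensity minus the 6-array mean of each gene, for the 8 genes (red) and the 10 genes nearest in pattern (blue), with likeness taken over the 6 arrays on the left and over deviations from group means on the right. Red lines span log2 differences of 1.13 to 1.52 between genotypes, and the blue lines on the left 0.21 to 0.56.

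To ask which cells of the tissue showed the same course, 18 lists of cell type markers were read on each array as the mean log2 deviation of their measured members. In bulk tissue fewer cells of a type and less RNA per cell cannot be told apart. The 8 genes themselves had a mean log2 intensity of 8.66, 8.47 and 8.17 on the transgenic arrays and of 6.79, 6.76 and 7.89 on the wild type arrays. Correlations of the list scores with the profile of the 8 genes are descriptions over 6 arrays that share the genotype difference.

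The adipocyte list rose with the 8 genes but by less. Rises passed the test for 6 of its 10 measured genes, beside 5.11% of all features called higher, and the median log2 difference was 0.54. Among the brightest, Pparg, the regulator of adipocyte identity, rose by 0.63 (SE 0.11, adjusted p = 0.0162) and Cidec, a lipid droplet protein gene, by 0.56 (SE 0.14, adjusted p = 0.0374), whereas Adipoq had a log2 difference of 0.28 (adjusted p = 0.0907) and Pnpla2 one of 0.09 at the top of the intensity range. Summed intensities ran from 58618 to 61008 on the transgenic arrays and from 44471 to 53263 on the wild type arrays. The score was 0.28, 0.21 and 0.21 on the transgenic arrays and -0.15, -0.47 and -0.09 on the wild type arrays (r = 0.91), with wild type array 3 nearer to its own group than in the 8 genes. Without transgenic array 2 none of the list passed, without transgenic array 1 or wild type array 2 only 1 did, without transgenic array 3 there were 2, and after background subtraction none did.

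The endothelial list placed wild type array 3 with the transgenic arrays. Its scores were 0.19, 0.11 and 0.24 on the transgenic arrays and -0.24, -0.42 and 0.11 on the wild type arrays (r = 0.92). Summed intensities ran from 9694 to 10110 on the transgenic arrays and from 5985 to 9610 on the wild type arrays. All 12 markers were measured, with a median log2 difference of 0.32, and 2 rose, beside 5.11% of all features called higher. The 2 were Cdh5, the endothelial cadherin gene (log2 difference 0.67, SE 0.18, adjusted p = 0.0419), and Sox17, an endothelial transcription factor gene (0.44, SE 0.12, adjusted p = 0.0497). The brightest, Gpihbp1, which holds lipoprotein lipase on capillaries, read 2841, 2921 and 2390 on the transgenic arrays, against 1025, 840 and 2364 on the wild type arrays (adjusted p = 0.0601). Flt1, Cldn5 and Pecam1 had log2 differences of 0.18, 0.40 and 0.09 that did not pass. Both calls were lost when transgenic array 1, 2 or 3 or wild type array 1 or 2 was left out, while without wild type array 3 there were 7.

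Several of the 8 genes are best known in epithelial cells. Markers of simple epithelium left little signal, but some markers of keratinocytes did not. Over the 6 arrays Krt10 read between 262 and 430 and Krtdap between 63.4 and 182. In the simple epithelium list 4 of 11 markers on the array were measured, Cdh1, Elf3, Cldn7 and Krt8, none above 71.6 on any array and 0 of them called. Their score had an r of 0.93 with the profile of the 8 genes but ran only from -0.10 to 0.05. Epcam, the defining marker, lay between 38.7 and 47.6, below the threshold on all 6 arrays. In the keratinocyte and hair follicle list 3 of 12 were measured, of which Trp63, the transcription factor of basal epithelia, rose (191, 162 and 126 on the transgenic arrays, against 69.3, 84.7 and 73.9 on the wild type arrays; log2 difference 1.06, SE 0.15, adjusted p = 0.0145), while Krt10 and Krtdap had log2 differences of 0.36 and 0.62 that did not pass. Trp63 separated the groups without a high wild type array 3. Krt14 and Lor, named after their values were seen, exceeded the threshold on transgenic arrays 1 and 2 only, with 90.6 and 104 for Krt14 and 164 and 204 for Lor, and Krt5 lay between 39.4 and 53.9. Summed keratinocyte intensities ran from 491 to 789 on the transgenic arrays and from 418 to 500 on the wild type arrays. The part of skin in the levels of the 8 genes was not tested. Of the brush border list, which holds the partners of Cdhr5 in gut and kidney, 2 of 11 were measured. Cdhr2 had a log2 difference of -0.13 and Espn, an actin bundler gene, fell by 0.42 (SE 0.08, adjusted p = 0.0173), and Vil1, Ush1c and Myo1a stayed near background.

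The scores of the Schwann cell, perineurial and neuronal lists had r of -0.92, -0.84 and 0.10 with the profile of the 8 genes. Of 11 measured Schwann cell markers 4 fell and 1 rose, beside 8.26% of all features called lower and 5.11% called higher. Mbp, a myelin protein gene, fell by 0.46, Cnp by 0.80, Egr2, the transcription factor of myelination, by 0.69 and Ngfr by 0.50 (adjusted p between 0.0182 and 0.0237), and Pmp22, which fibroblasts also express, rose by 0.49 (adjusted p = 0.0463). Mbp and Cnp are also expressed in other cells, lymphocytes among them, and the part of any cell type in these falls was not tested. Sox10, the defining factor of Schwann cells, read 76.4 ± 6.39 against 76.6 ± 5.08 (SD, n = 3 each), not far above the threshold of 55.6. Without transgenic array 2 or wild type array 2 no Schwann cell marker passed, 1 passed without transgenic array 1, and 2 without transgenic array 3. Of 7 measured perineurial and meningeal markers 1 fell, the tight junction gene Cldn1 (log2 difference -0.46, adjusted p = 0.0366), and none passed when any array other than wild type array 1 was left out. Slc6a13, a GABA transporter gene of the same list, was higher on every transgenic array than on any wild type array without passing (log2 difference 0.60, adjusted p = 0.0509). Of 5 measured neuronal markers 0 passed.

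The tendon and cartilage list had the highest correlation with the profile of the 8 genes (r = 0.96), but through few genes. Comp, a cartilage matrix gene and the top gene of the ranking above, carried it with 627, 418 and 234 on the transgenic arrays, against 80.1, 69.9 and 178 on the wild type arrays. Tnc had a log2 difference of 0.26 (adjusted p = 0.136), Fmod, a collagen-binding proteoglycan gene, lay the other way at -0.40 with 89.6 on wild type array 2 (adjusted p = 0.177), and Tnmd, Col2a1 and Col11a1 stayed near background, as did Scx, Mkx and Acan, which define tendon and cartilage cells. The Comp call was lost without transgenic array 1 or 2 or wild type array 2. Counts in the adipose progenitor and pericyte lists lay near the 13.4% of all features called. The adipose progenitor list had 1 fall among 11 measured genes, Dpp4 at a log2 difference of -0.92 (adjusted p = 0.0443). Dlk1, described above, belongs to this list and lay the other way, at 2.40 without passing. The list had a median log2 difference of -0.13, and its score an r of -0.20 with the profile of the 8 genes. In this list 0 passed without each transgenic array or wild type array 1 or 2, and 3 without wild type array 3. Pericyte markers had 1 rise, Mcam, and 1 fall, Des, among 10. Their calls were 0 without each transgenic array or wild type array 2, and 5 without wild type array 3. Macrophage, mast cell, erythroid and mesothelial lists had 0 calls. Kit, the brightest mast cell marker, read 638, 645 and 594 on the transgenic arrays, against 305, 339 and 641 on the wild type arrays. The score of the mast cell list had an r of 0.39 with the profile of the 8 genes.

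Lymphocyte and skeletal muscle genes differed most between arrays. All 9 measured lymphocyte markers fell, beside 8.26% of all features called lower, with a median log2 difference of -2.24. Cd3g, a T cell receptor chain gene, read 133, 531 and 774 on the transgenic arrays, against 1251, 2657 and 1741 on the wild type arrays. Summed intensities ran from 972 to 4254 on the transgenic arrays and from 7814 to 15017 on the wild type arrays. Transgenic array 1, highest in 6 of the 8 genes, had the lowest lymphocyte score (-2.16), and wild type array 2 the highest (1.48), while wild type array 3 scored 0.93, above the 0.60 of wild type array 1. Without transgenic array 2 or wild type array 2 no lymphocyte gene passed, and without wild type array 3 there were 4; background subtraction left 0 and limma's trend and robust settings 1. Skeletal muscle genes were high on wild type array 2 alone (score 3.16, against -1.36 to -0.22 on the other wild type arrays and -1.25 to -0.08 on the transgenic arrays). Without wild type array 2 the median log2 difference of the 8 genes was 1.05, and without transgenic array 1 it was 1.15. The brown adipocyte list had 3 falls among 8 measured genes, beside 8.26% of all features called lower. The falls were in Ucp1, Cox7a1 and Fabp3 (0 passed without transgenic array 2). The score of the list was -0.26, -0.25 and -0.30 on the transgenic arrays and 0.32, 0.28 and 0.22 on the wild type arrays.

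**Figure D4:**
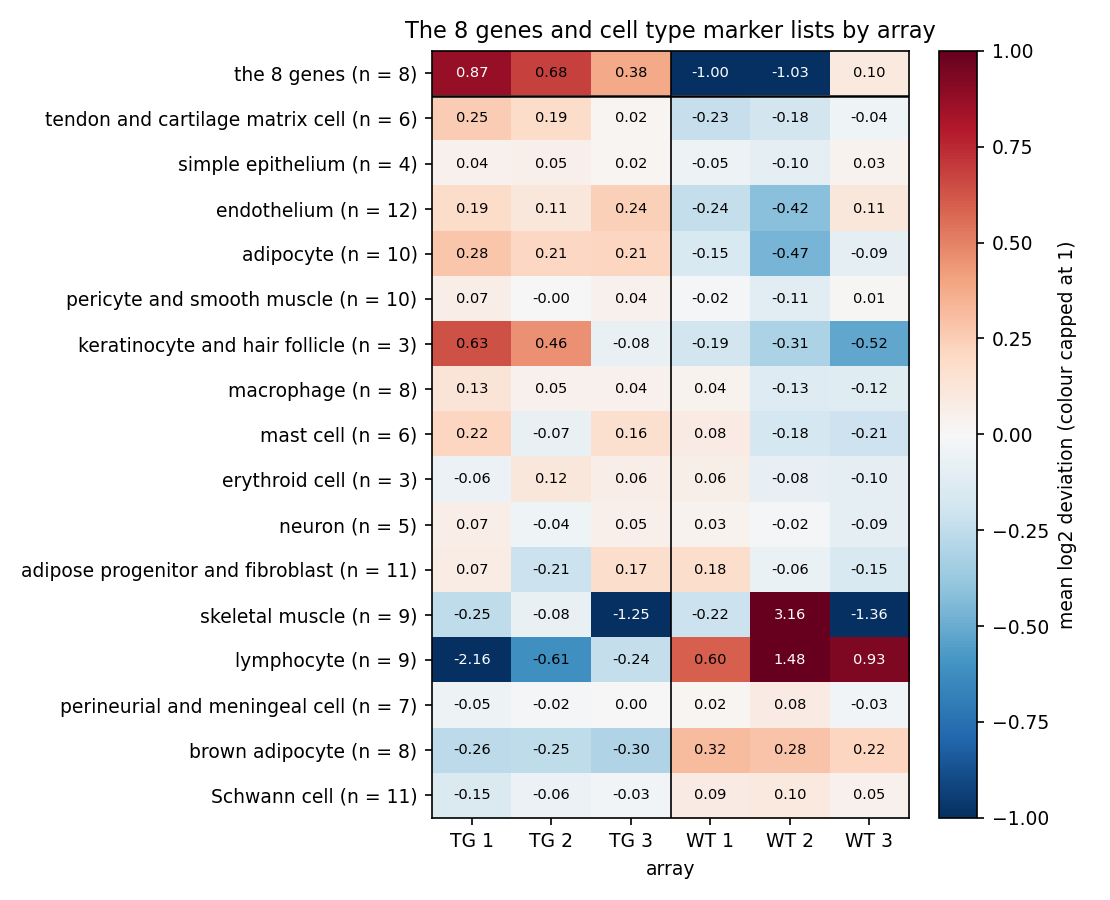
Mean log2 deviation from the 6-array mean on transgenic (TG) and wild type (WT) arrays, for the 8 genes (top) and for the marker lists with at least 3 measured genes, ordered by their correlation with the profile of the 8 genes. The endothelial list, which places wild type array 3 near the transgenic arrays as the 8 genes do, spans -0.42 to 0.24. Unlike most of the 8 genes, it is highest on transgenic array 3. The simple epithelium and pericyte lists also place it above wild type arrays 1 and 2 and within the transgenic range. Their spans are narrower, from -0.10 to 0.05 and from -0.11 to 0.07.

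The relatives and partners of the 8 genes mostly stayed near background or did not pass, beside 13.4% of all features called. None of the other 5 NMDA receptor subunit genes named on the array passed the filter, with Grin2b above the threshold on transgenic array 2 alone (58.6) and Grin2c on transgenic array 1 alone (60.4). Grin1, the subunit that every such receptor needs, is not named in the annotation, and its level was not analysed here. Of the potassium channel genes 3 of 7 were measured, Kcne4, Kcne1 and Kcnq1, with log2 differences of 0.23, 0.01 and 0.25 and 0 calls. Among sulfate transporter genes Slc26a6, Slc26a2 and Slc13a3 were measured, between -0.01 and 0.23, with 0 calls. Of the Slc6 carriers 5 of 11 were measured and 0 passed, though Slc6a13, named above among the perineurial and meningeal markers, came near (255 ± 40.3 against 169 ± 34.8, SD, n = 3 each; log2 difference 0.60, SE 0.17, adjusted p = 0.0509). Slc6a6, the taurine carrier, Slc6a8, the creatine carrier, and Slc6a12, the betaine carrier, differed by 0.31, 0.37 and 0.36 on the log2 scale without passing. In Slc6a8 (adjusted p = 0.0595) and Slc6a12 (adjusted p = 0.0569), but not in Slc6a6, every transgenic array was above every wild type array. With the arrays centred on the median of kept features, 3 genes of this list passed.

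Of the receptor partners, Il17ra, the chain with which Il17re pairs, fell, with 63.5, 57.4 and 65.9 on the transgenic arrays, against 74.3, 125 and 100.2 on the wild type arrays (log2 difference -0.65, SE 0.17, adjusted p = 0.0425). Traf3ip2, the adaptor of these receptors, also fell (79.9, 96.3 and 105 on the transgenic arrays, against 129, 149 and 119 on the wild type arrays; log2 difference -0.50, adjusted p = 0.0386). Both are also expressed by leukocytes, whose lymphocyte markers fell on the same arrays, and the part of those cells was not tested. Without transgenic array 2, without transgenic array 1 or without wild type array 2 neither passed. Il17rc, Il17rb and Il17d had log2 differences of 0.29, 0.45 and 0.35 without passing, and the ligand gene Il17c stayed below 51.2. For Ddr1, the related receptor Ddr2 had a log2 difference of -0.14 (adjusted p = 0.413), and of 9 collagen genes 0 passed, with Col4a1 at -0.08 and Col4a2 at 0.11. The brush border relatives Cdhr1, Cdhr2 and Calml4 had log2 differences of -0.37, -0.13 and -0.22 with 0 calls.

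Anln was set against other genes of mitosis and cytokinesis. Of 9 measured, 2 fell with a median log2 difference of -0.27: Top2a, a topoisomerase of dividing cells (93.0, 103 and 105 on the transgenic arrays, against 118, 162 and 176 on the wild type arrays; adjusted p = 0.0384), and Nusap1, a spindle protein (log2 difference -0.31, adjusted p = 0.0387). Kif23, a kinesin of the cleavage furrow, was the brightest and missed the threshold at a log2 difference of 0.44 (adjusted p = 0.0991), and Prc1, Cdk1 and Birc5, which encodes survivin, had -0.15, 0.01 and -0.54 (Birc5 adjusted p = 0.0699). The score of this list was highest on wild type array 3 (0.31) and had an r of -0.22 with the profile of the 8 genes. Over all features 8.26% were called lower. Both calls in this list were lost when any 1 transgenic array or wild type array 2 was left out.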

How the data were processed

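RNA was labelled as biotinylated cRNA, per the labels' protocols. The deposited intensities are on a linear scale. Their sorted values differed between the 6 arrays by at most 0.157, so they were quantile-normalized. The lowest was 32.4, so a background level remained in them. The values alone do not show whether any background had been subtracted before. The sources used here do not name the software. The 24 per-array columns of a scanner table name 6 positions of 1 chip and match no sample's label, so that table was left out, and detection calls and chip positions are unknown. Background was the mode of all log2 values and the threshold the mode plus 1.645 times the spread below it. A probe above the threshold on at least 3 arrays was kept (22037, or 48.7%), which a gene can pass through the group where it is high; background left in the values understates folds of dim probes. Platform annotation, which can be old, gave 1 gene to 34885 probes, several to 18 and none to 10378. Each gene was represented by its brightest kept probe, giving 14962 features (11469 named genes). The genotype comparison used lmFit and eBayes of limma 3.58.1 (R 4.3.3) on log2 values with Benjamini-Hochberg adjustment at 0.05, a fit tested on simulated data. Since separate animals are not stated, p-values reflect the spread among these 6 arrays only, which may be technical; precision is limited by having 3 per genotype.

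The 8 genes, the lists and the motifs were chosen with earlier results of these data known. Named genes are the 8 with every probe, up to 4 of the brightest measured genes of a list described and its called genes where 5 or fewer, the 10 nearest in pattern by each measure, and Cisd1; others are said to be named after their values were seen, apart from defining markers near background, the edge of the ranking and members of the named families. Alternatives covered the filter, offset, background, centring, probes, test settings, weights, replicate block and each array left out; leaving out arrays in the correlations was added after seeing the data.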

Additional observations from a re-analysis of the deposited data

How the results depend on the processing

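The log2 differences of the 8 genes kept their sign under every setting run on the brightest probe. The genes were chosen for large differences without overlap between the groups, so leaving out an array could not reverse a sign. Of 88 such differences 86 moved by less than 1 SD between replicates, an SD that the high wild type array 3 widens. The exceptions, with the background level subtracted, were Kcne1l (2.49) and Grin3a. The Grin3a value of 2.18 is set by the floor of 16 given to differences below it. The second of the other Anln probes, below the threshold on all arrays, had a log2 difference of -0.00707 (-0.01). With 1 array left out the median log2 difference ran from 1.05 to 1.57 and the median r of pairs from 0.971 to 0.989; Spearman's coefficient gave a median of 0.914. Of the 10 genes nearest in pattern 7 were among the 246 at or tied with the tenth place by Spearman's coefficient and 6 among the 10 nearest with background subtracted. The count of 2001 features called was less stable: 45 with background subtracted, 3450 at an adjusted p under 0.1, and 0 to 2083 with 1 array left out. Every kept probe tested separately gave 1259 higher, array weights gave 1247 higher and centring gave 1117 higher and 1086 lower, against 765 higher and 1236 lower; the cause was not tested. Numbers 1 to 3 are shared by both groups, but the deviations of same-numbered arrays correlated at 0.41, 0.22 and -0.03, so they were not taken as pairs; with the number as a replicate block 2391 features passed. Of 398 list medians under the alternatives 66 moved by 1 SD or more, and of 398 list counts 112 moved past 1.5 times. With 3 arrays a group and no detection calls, readings near background limit what can be said of dim probes.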
